A study of Mus musculus with 8 samples.

Results

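The 5 loci described here are the genes of other splicing regulators, Nova1, Mbnl1, Mbnl2, Qk and Celf4, in a map of the RNA bound by Ptbp2 in the embryonic mouse cortex. Their members were chosen by position: a sequenced fragment, called a tag, belongs to a locus when its midpoint lies in the interval of that gene on the gene's strand, in build mm9. The 5 intervals held 2838 of 3098854 tags (0.0916%). The tags came from the cortex of wild-type CD1 mice at embryonic day 18.5, from 2 brains with 4 libraries each, by HITS-CLIP, in which ultraviolet light fixes a protein to RNA in contact with it and the bound fragments are sequenced. Brain 1 gave 1932995 tags and brain 2 gave 1165859, with 228424 to 545387 in a library. Tissue was whole cortex, so fewer cells that express a gene and less of its RNA per cell cannot be told apart. No input RNA, other antibody or animal without Ptbp2 was analysed here, so binding and the abundance of a transcript cannot be told apart either.

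Ptbp2, also called nPTB, is the polypyrimidine tract binding protein of neurons. It contacts stretches of RNA rich in C and U through RNA recognition motifs and is best known for keeping exons out of mature transcripts in immature neurons. Splicing regulators often bind the transcripts of one another, which is why the genes of other regulators are of interest in such a map. Nova1 is a neuronal KH-domain protein. Mbnl1 and Mbnl2 are muscleblind zinc finger proteins that promote adult patterns of splicing. Qk, or quaking, is a KH-type protein of the STAR family known for its part in myelination, and Celf4 is a brain-enriched member of the CELF family with RNA recognition motifs.

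Tags lay mostly on the strand of the gene, least so in Mbnl2. Nova1 was taken as chr12:47796000-47921000 on the minus strand, Mbnl1 as chr3:60276000-60435000 and Mbnl2 as chr14:120674000-120832000 on the plus strand, Qk as chr17:10399000-10513000 and Celf4 as chr18:25636000-25914000 on the minus strand. They were 125.0, 159, 158, 114 and 278 kb long, against gene lengths of 122, 157, 156, 113 and 277 kb in RefSeq on another assembly, GRCm38.p6. The sense strand held 98.7% of the tags in Qk (95% interval 97.4 to 99.4%, exact Clopper-Pearson, counting error only), 97.4% in Celf4, 96.4% in Nova1 and 94.8% in Mbnl1. Mbnl2 stood lower, at 73.5% of 151 tags (65.7 to 80.4%), with 40 tags on the opposite strand. Over 10005 places of 100 kb with 100 or more tags, the median share on the fuller strand was 84.3%. That strand was picked by its counts, while the strand of a locus was fixed by the gene, so the shares are not measured alike. Mbnl2, with 151 tags in 158 kb, was also sparser than those places.

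Each interval was denser than the 50 kb on either side of it, though the tags of Celf4 and Qk ran on past the 3′ boundary. Celf4 held 5.97 sense tags per kb inside and 0.120 in the 50 kb upstream, and Qk held 5.13 and 0.120. Downstream of Celf4, 77 sense tags lay in 50 kb, 60 of them in the first 10 kb past the boundary. Downstream of Qk there were 80, of which 52 lay in the first 10 kb. The tags past these boundaries are not counted as members, and whether they belong to the same transcripts was not tested. Around Nova1 and Mbnl1 the flanks held 0.140 to 0.620 tags per kb, more upstream than downstream, against 2.11 and 1.38 inside. Mbnl2, at 0.703 inside, had 0.460 in the downstream flank.

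**Figure D1:**
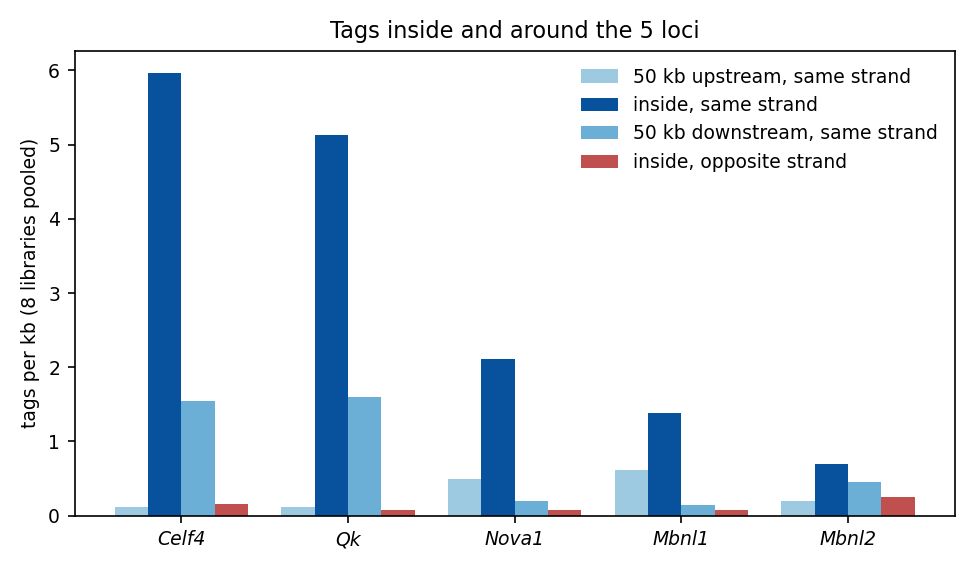
Tags per kb (8 libraries pooled) inside each of the 5 loci on the gene's strand, in the 50 kb on either side on that strand, and inside on the opposite strand. Density inside was above both flanks at each locus, from 5.97 in Celf4 to 0.703 in Mbnl2, and the downstream flanks of Celf4 and Qk held 1.54 and 1.60.

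Celf4 and Qk carried the densest tags and Mbnl2 the sparsest, in each of the 8 libraries. Levels are compared per length, as CPM per kb, where CPM is the number of tags scaled to 1000000 tags in the library. Celf4 stood at 1.92 ± 0.13 (SD, n = 8), Qk at 1.61 ± 0.29, Nova1 at 0.689 ± 0.207, Mbnl1 at 0.464 ± 0.135 and Mbnl2 at 0.212 ± 0.110. These 8 are 4 libraries of each of 2 brains, so the SD mixes differences between brains with those between libraries. For Qk the brains stood at 1.81 ± 0.17 and 1.41 ± 0.23 (SD, n = 4 each). Celf4 was above Qk in 8 of 8 libraries, yet by little in library 2 of brain 1 (2.072 against 2.067), and the ranges overlapped. Counting each position once per library put Qk above Celf4 in libraries 2 and 3 of brain 1. The means were then 1.76 for Celf4 and 1.61 for Qk. With all tags counted, Qk was above Nova1 in 8 of 8 with no overlap, 2.34-fold in the means. Nova1 was above Mbnl1 in only 6 of 8 libraries, and these neighbours did not differ beyond their spread. The paralogs Mbnl1 and Mbnl2 differed 2.19-fold in the means, Mbnl1 being higher in 8 of 8, with ranges that overlapped slightly (lowest Mbnl1 library 0.329, highest Mbnl2 library 0.337). Among 52085 strand-specific windows of 100 kb with a tag, whose median was 0.310 tags per kb over all libraries, 99.3% were less dense than Celf4, 99.1% than Qk, 95.6% than Nova1, 91.7% than Mbnl1 and 79.5% than Mbnl2. These windows were placed without regard to genes, and include opposite strands and stretches between genes. The shares therefore do not rank the loci among other expressed genes.

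**Figure D2:**
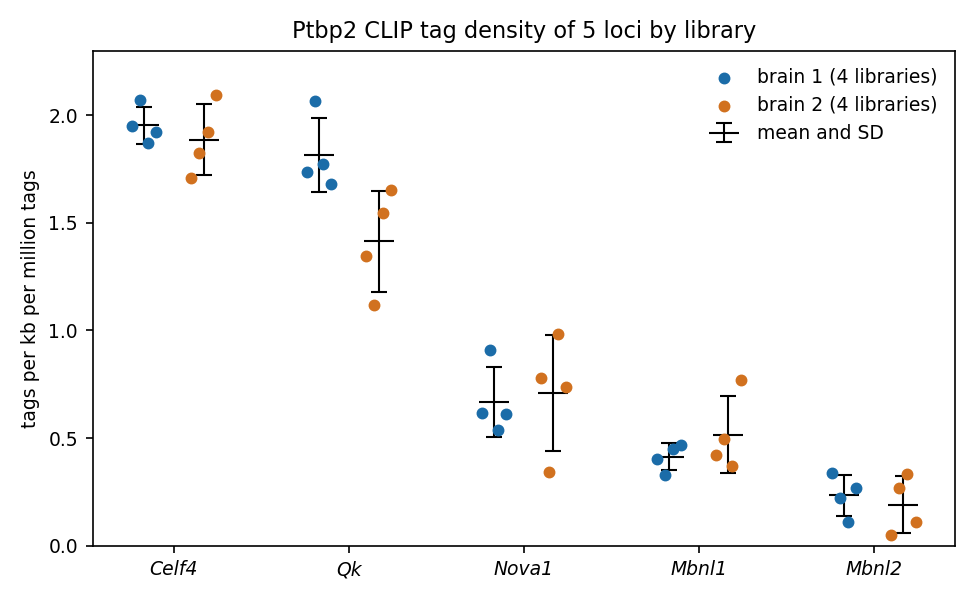
Tag density (CPM per kb, which is tags per kb scaled to 1000000 tags in the library) of each locus, 1 point per library, with mean and SD over the 4 libraries of each brain. Celf4 lies between 1.71 and 2.09, Qk between 1.12 and 2.07, and Mbnl2 does not exceed 0.337.

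The brains were then compared, which asks whether the 2 animals gave the same level at each locus. Celf4 held 543, 576, 519.9 and 534 CPM in libraries 1 to 4 of brain 1 and 475, 507, 534 and 582 in those of brain 2. The libraries of the brains overlapped. Qk held 198, 236, 202 and 192 CPM in brain 1 and 153, 128, 176 and 188 in brain 2. Here each library of brain 1 lay above each of brain 2, as was the case in 4.57% of all features tested (the reverse order, in 2.16%, was seen at none of the 5 loci). Nova1 held 77.0, 113, 67.4 and 76.7 CPM in brain 1 against 97.2, 42.5, 123 and 91.9 in brain 2, where both the lowest and the highest library were found. Mbnl1 held 64.2, 52.4, 71.8 and 74.5 against 67.3, 79.0, 58.7 and 123, the last of these being library 4 of brain 2, the shallowest. Mbnl2 rested on few tags, 29, 16, 8 and 20 in brain 1 and 2, 14, 18 and 4 in brain 2, or 7.48 to 53.2 CPM, with overlapping brains.

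None of the 5 loci passed the test between brains. With limma voom over 9971 features (the 5 loci and 100 kb windows of the rest of the genome), 63 features (0.632%) passed a Benjamini-Hochberg adjusted p of 0.05, and 1 of the 5 loci, Qk, had an unadjusted p under 0.05, against 12.1% of all features. In 7 of 13 alternatives no locus had one: with the replicate number as a block, with same-letter libraries (by title) summed, and without library 2, 3 or 4 of brain 1 or library 1 or 2 of brain 2. With a library left out the 63 features became 16 to 65, lowest without library 1 of brain 2, and 22 without library 1 of brain 1. Qk differed by -0.30 ± 0.15 on the log2 scale (SE, brain 2 minus brain 1, 95% interval -0.59 to -0.0033, limma, adjusted p = 0.406). Celf4 differed by 0.02 ± 0.09 (-0.16 to 0.20, limma, adjusted p = 0.965), the narrowest interval of the 5. Nova1 differed by 0.09 ± 0.22 (-0.34 to 0.52), Mbnl1 by 0.32 ± 0.22 (-0.11 to 0.75) and Mbnl2 by -0.14 ± 0.41 (-0.95 to 0.67). Depth limits the last of these most. The sign for Nova1, Mbnl2 and Celf4 turned when single libraries were left out: Nova1 was at -0.14 without library 3 of brain 2, Celf4 at -0.023 without library 4 of brain 2, and Mbnl2 reached 0.21. The 4 libraries of a brain share 1 animal, so the test measures technical spread. Their titles also carry a letter, a or b, on 2 libraries each, whose meaning the sources used here do not give. If the libraries of a letter share a preparation, they are not 4 independent samples, and every test and SD over libraries overstates the precision.

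Within Celf4, tags gathered in a few short stretches, the fullest of them around 80 kb and 265 kb from the 5′ boundary. Overlapping tags of all libraries on 1 strand (at least 1 nt shared) make up a cluster here, and its height counts the tags over its fullest base. Celf4 held 19 clusters of height 10 or more and 9 of height 20 or more, while no cluster of the other 4 loci reached 20. Clusters of height 10 or more took 33.8% of its tags (95% interval 31.5 to 36.1%), against 15.7% over the whole series, 14.2% in Qk, 12.6% in Mbnl2, 10.05% in Mbnl1 and 7.58% in Nova1. A fixed height is reached more readily where tags are dense, as in Celf4, and these shares were not matched for density. The tallest cluster of Celf4, chr18:25833301-25833434, had a height of 80 and 97 tags at 31 distinct positions, 80.6 kb from the 5′ boundary. Its libraries gave 19, 16, 10 and 16 tags in brain 1 and 8, 11, 7 and 10 in brain 2, or 31.4 ± 6.4 and 31.9 ± 9.6 CPM (SD, n = 4 each). It was the only cluster of the loci with enough tags to be tested, and it did not pass between brains (log2 difference -0.23 ± 0.31 SE, limma, adjusted p = 0.716), where 1.29% of 466 clusters passed. The negative sign comes with the scaling between libraries used in the test. Scaled, the means were 33.5 CPM in brain 1 and 29.7 in brain 2, unlike the unscaled values above.

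The tallest Celf4 cluster had close neighbours. Upstream of it in the RNA, chr18:25834657-25834734 (height 52, 60 tags) and chr18:25834601-25834655 (height 28, 28 tags) were separated by 1 nt, and chr18:25832748-25832805 (height 28) lay downstream. The stretch chr18:25832748-25833434, 687 nt or 0.247% of the interval, held 140 tags, which is 8.44% of the tags of Celf4. Its libraries gave 25, 19, 20 and 23 tags in brain 1 and 12, 15, 14 and 12 in brain 2, or 44.9 ± 3.2 and 46.0 ± 4.8 CPM (SD, n = 4). Coverage peaked at -40 nt from the centre of the tallest cluster in brain 1 and at -27 nt in brain 2, with 25.9 and 26.6 CPM over a base. The top was nearly level, so these positions do not show a shift between brains. Brain 1 had 50 tags over -40 nt and 49 over -27 nt, and brain 2 had 29 and 31. Further along, chr18:25820525-25820592 reached a height of 50 with tags of all 8 libraries.

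**Figure D3:**
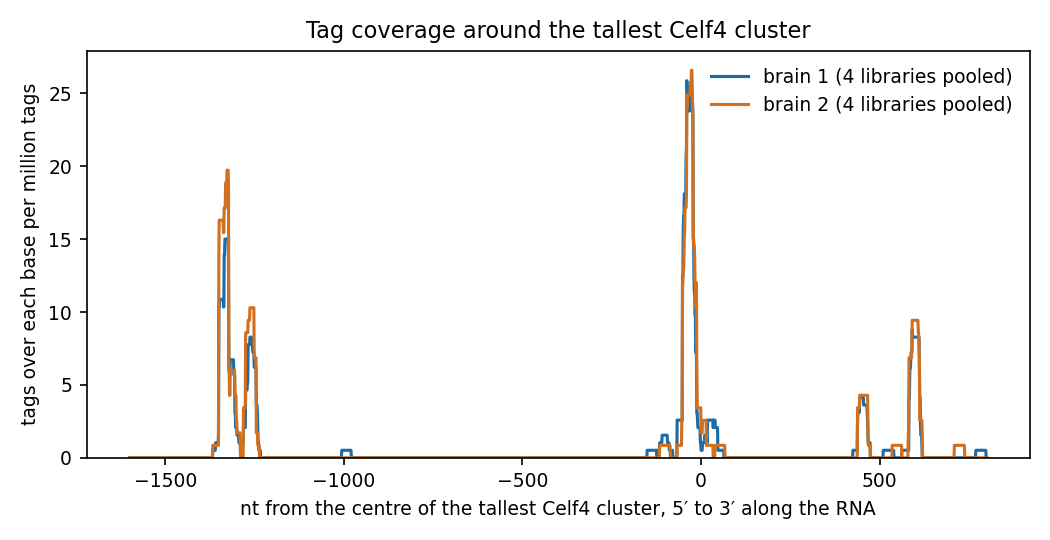
CPM over each base (tags per 1000000 tags), along the RNA from 5′ to 3′, around the centre of the tallest Celf4 cluster, with the 4 libraries of each brain pooled. The highest points are 25.9 in brain 1, at -40 nt, and 26.6 in brain 2, at -27 nt. Coverage is nearly level between these positions in both brains.

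A second dense stretch of Celf4 lay close to its 3′ boundary, 266 kb from the 5′ boundary. It ran over chr18:25646648-25650188 with 9 clusters of height 5 or more and 177 tags, 10.7% of the locus in 1.27% of its length. Its tallest cluster, chr18:25647739-25647780, had a height of 59, and 45 of its 59 tags shared a 5′ end. The libraries of brain 1 gave 10, 14, 7 and 7 tags there and those of brain 2 gave 4, 5, 10 and 2. In the same stretch chr18:25649432-25649482 reached a height of 38. Near the 5′ boundary, chr18:25904435-25904491 had a height of 32, and in the middle chr18:25776662-25776731 had a height of 20. Of the 9 clusters of height 20 or more, 7 had tags of all 8 libraries, with 6 in chr18:25834601-25834655 and 7 in chr18:25776662-25776731. The fullest 10 kb window of the fixed grid, chr18:25830001-25840000, held 268 tags (16.2%, 14.4 to 18.0%), and its share was 15.3 ± 1.7% in brain 1 and 17.8 ± 3.9% in brain 2 (SD, n = 4 each, two-sided exact permutation p = 0.286).

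In Qk each step of 10 kb from the 5′ boundary held 19 to 96 tags, with clusters near both ends. The 6 clusters of height 10 or more lay 4.08 to 113 kb from the 5′ boundary. There were 3 with each position counted once per library, and 4 without library 1 of brain 1 or library 3 of brain 2. The tallest were chr17:10508892-10508952 near the 5′ boundary (height 17, 18 tags) and chr17:10404384-10404423 near the 3′ boundary (height 17, 17 tags). The former drew 3, 3, 5 and 2 tags from brain 1 and 0, 1, 1 and 3 from brain 2, and the latter 0, 2, 6 and 2, and 2, 0, 2 and 3. The former took 3.29 ± 1.42% of the tags of Qk in brain 1 and 2.76 ± 2.99% in brain 2 (SD, n = 4 each, exact permutation p = 0.771). Then followed chr17:10428842-10428888 (height 13), chr17:10455630-10455675 (height 12, with tags of all 8 libraries) and chr17:10474364-10474427 (height 11). On the fixed grid of 10 kb windows along the chromosome, chr17:10400001-10410000 held the most tags, 93 or 15.9% (13.0 to 19.1%). Counted from the 5′ boundary, the step from 80 to 90 kb held 96. Of 10 kb windows with enough tags to be tested, 3 lay in Qk and 4 in Celf4, and 0 of these 7 passed in limma voom, where 45 of 3757 windows (1.20%) did. None of the 7 had an unadjusted limma p under 0.05 either, against 390 of all 3757 windows.

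Nova1 had its fullest steps of 10 kb near both ends. The steps from 10 to 30 kb held 39 and 41 tags, and the step from 110 to 120 kb from the 5′ boundary held 48, while the steps in between held 3 to 27. Its only cluster of height 10 or more, chr12:47808286-47808369 (height 12, 20 tags, 7.58% of the locus), was 113 kb from the 5′ boundary. It drew 7, 3, 4 and 1 tags from brain 1 and 3, 0, 1 and 1 from brain 2, a share of 9.53 ± 6.38% and 4.67 ± 4.97% of the locus (SD, n = 4 each, exact permutation p = 0.229). No cluster of Nova1 reached 10 without library 1 of either brain. A group of 3 low clusters lay at chr12:47902096-47902575 with 21 tags. The next in height, chr12:47811261-47811303 and chr12:47902373-47902406, each had a height of 9. A cluster of 6 tags at chr12:47863440-47863494 had tags of brain 2 only, and another of 6 at chr12:47896242-47896273 of brain 1 only.

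**Figure D4:**
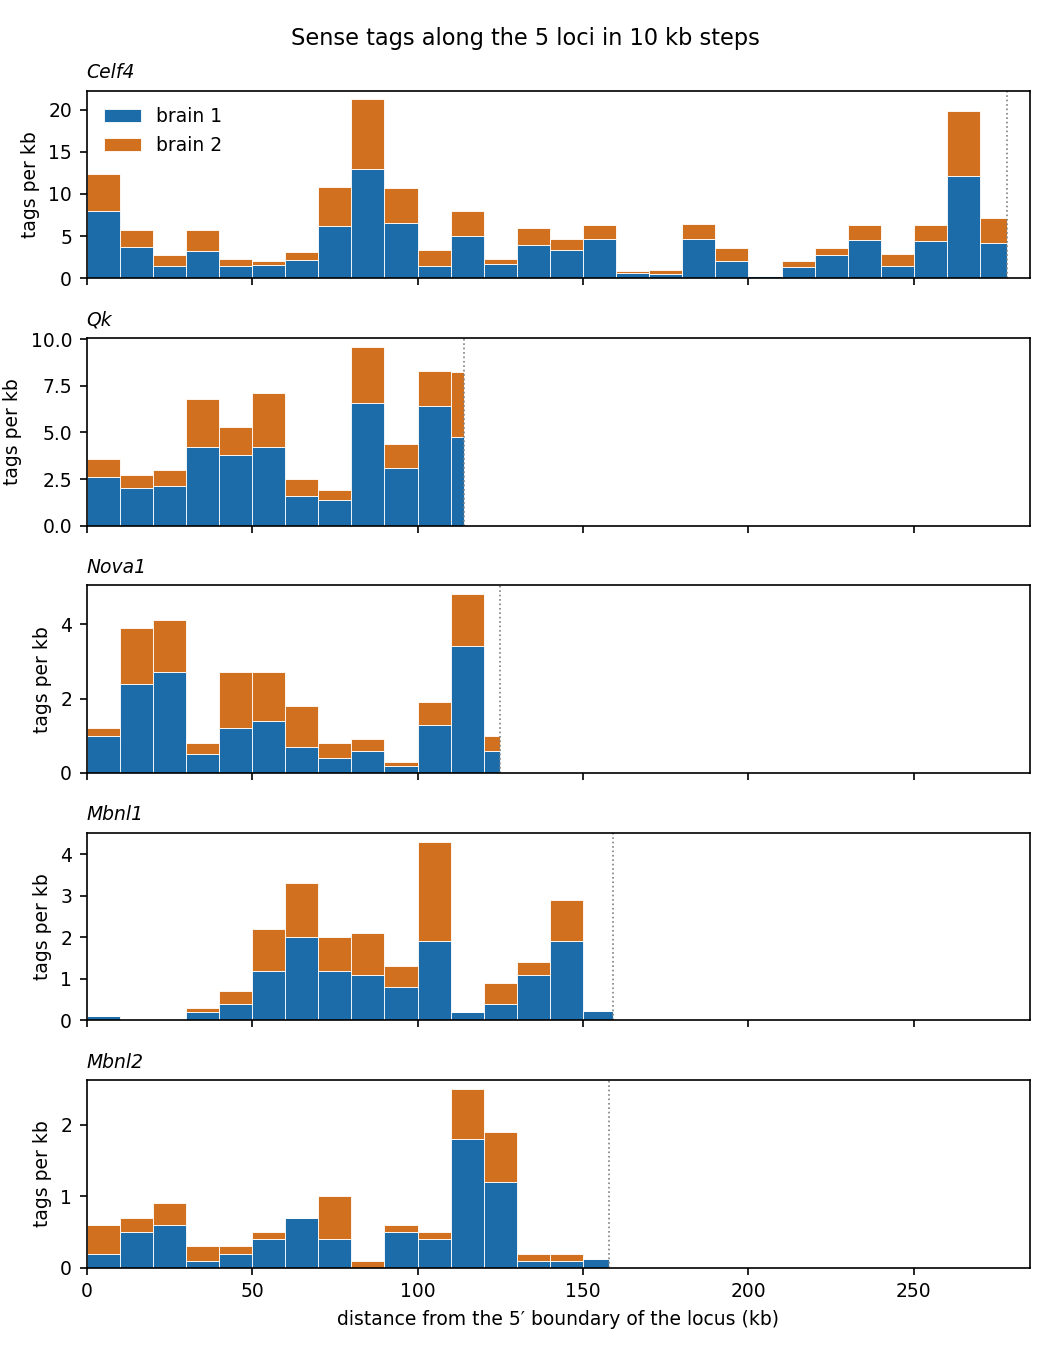
Sense tags per kb in steps of 10 kb from the 5′ boundary of each locus, stacked by brain, with the 3′ boundary dotted. Celf4 peaks at 80 to 90 kb (212 tags) and at 260 to 270 kb (198 tags), and Mbnl1 holds 4 tags in its first 40 kb.

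Mbnl1 was almost without tags in its 5′ part. The first 40 kb of the interval held 4 tags, from 3 libraries, and the stretch from 50 kb on held 208 of the 219. RefSeq lists a pair of starts for Mbnl1, 28.3 kb apart on GRCm38.p6. In the first 28.3 kb of the mm9 interval there was 1 tag (0.0353 per kb), and in the other 131 kb there were 218 (1.67 per kb). Tags did not rise directly past 28.3 kb, with 3 from 30 to 40 kb and 7 from 40 to 50 kb. The step from 50 to 60 kb held 22. Because the assemblies differ, the distance between the starts places the second start only roughly, and transcripts of either start were not measured. The 250 bases before each start are shown because nearly all tags lay farther from the 5′ boundary than the distance between the starts, with each CG dinucleotide in capitals (RefSeq, plus strand, 5′ to 3′).
Mbnl1 first start, GRCm38.p6 chr3:60472580-60472829: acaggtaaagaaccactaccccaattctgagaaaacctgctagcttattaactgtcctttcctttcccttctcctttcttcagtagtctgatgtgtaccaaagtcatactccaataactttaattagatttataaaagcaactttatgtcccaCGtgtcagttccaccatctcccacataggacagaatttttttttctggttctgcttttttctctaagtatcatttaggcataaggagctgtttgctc
Mbnl1 second start, GRCm38.p6 chr3:60500929-60501178: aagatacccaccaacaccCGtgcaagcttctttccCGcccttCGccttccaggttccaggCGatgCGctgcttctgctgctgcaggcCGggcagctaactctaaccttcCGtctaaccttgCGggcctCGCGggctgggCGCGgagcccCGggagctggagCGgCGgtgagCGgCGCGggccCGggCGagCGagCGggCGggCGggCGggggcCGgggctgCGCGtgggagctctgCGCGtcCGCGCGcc
The first holds 1 CG and 38.0% G and C, and 7.87% of 32851 RefSeq promoters have fewer CG. The second holds 33 CG and 73.6% G and C, and 96.0% of the promoters have fewer CG, their median being 6. No base of the bound sites themselves is shown, as no genome of build mm9 was used here.

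Further along Mbnl1, 2 clusters reached a height of 10. They were chr3:60384955-60384989 (height 12, with 2, 0, 0 and 2 tags from brain 1 and 1, 3, 0 and 4 from brain 2) and chr3:60345562-60345607 (height 10, with 5 tags from each brain). Without library 2 of brain 2 no cluster reached 10; without library 3 of brain 1 there were 2, and without any other single library 1. The first lay in the fullest 10 kb window of the fixed grid, chr3:60380001-60390000, which held 43 tags (19.6%, 14.6 to 25.5%). That window took 14.1 ± 7.7% of the tags of Mbnl1 in brain 1 and 26.0 ± 8.4% in brain 2 (SD, n = 4 each), and the exact permutation p was 0.0857, where 4 against 4 libraries cannot give less than 0.0286. Within it, the 630 nt of chr3:60384360-60384989 held 37 tags, 16.9% of the locus.

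Mbnl2 had its fullest steps from 110 to 130 kb, with 25 and 19 of its 111 tags. Its tallest cluster, chr14:120786929-120786992, had a height of 13 and 14 tags at 8 distinct positions, with 7 from each brain and from 6 libraries. That is 12.6% of the locus (7.07 to 20.3%), with 9.70 ± 6.49% in brain 1 and 25.5 ± 34.2% in brain 2 (SD, n = 4 each, exact permutation p = 0.514), where library 4 gave 3 of its 4 tags. Its height was under 10 without library 1 of brain 1. The other cluster of height 5 or more, chr14:120793356-120793384, drew 6 tags, all from brain 1.

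Over the 5 loci, 94 clusters reached a height of 5, and 82 of them held tags of both brains. That is a lower share than the 91.5% of the 85030 in the whole series. Tags of brain 1 alone made up 9 and of brain 2 alone 3. All 29 clusters of height 10 or more held tags of both brains, as did 99.1% in the whole series, and 9 of these held tags of all 8 libraries, 8 in Celf4 and 1 in Qk. Pooling before clustering favours such sharing, so the brains were also clustered separately. Of 30 clusters then found with a height of at least 5 in brain 2, 20 (66.7%) overlapped one called in the deeper brain 1, and of 52 called in brain 1, 21 (40.4%) overlapped one of brain 2. Over the whole series these shares were 66.7% and 33.0% at a height of 5, and 52.1% and 28.7% at 3. Celf4 gave 14 of 19 in brain 2 and Qk 4 of 6, while in Nova1 none of 5 in brain 1 and 1 in brain 2 did. With a height of at least 3, 43 of 86 clusters of brain 2 (50%) and 45 of 138 of brain 1 (32.6%) overlapped, with 2 of 9 and 3 of 14 in Nova1. Another cluster of the locus lay within 1000 nt for 45 of the 94, 29 of them in Celf4, 9 in Qk and 0 in Mbnl2. Over the whole series 32.9% of clusters had another on the same strand within that distance, and these shares were not matched for density. In 30 of the 94, a single position held over 50% of the tags.

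**Figure D5:**
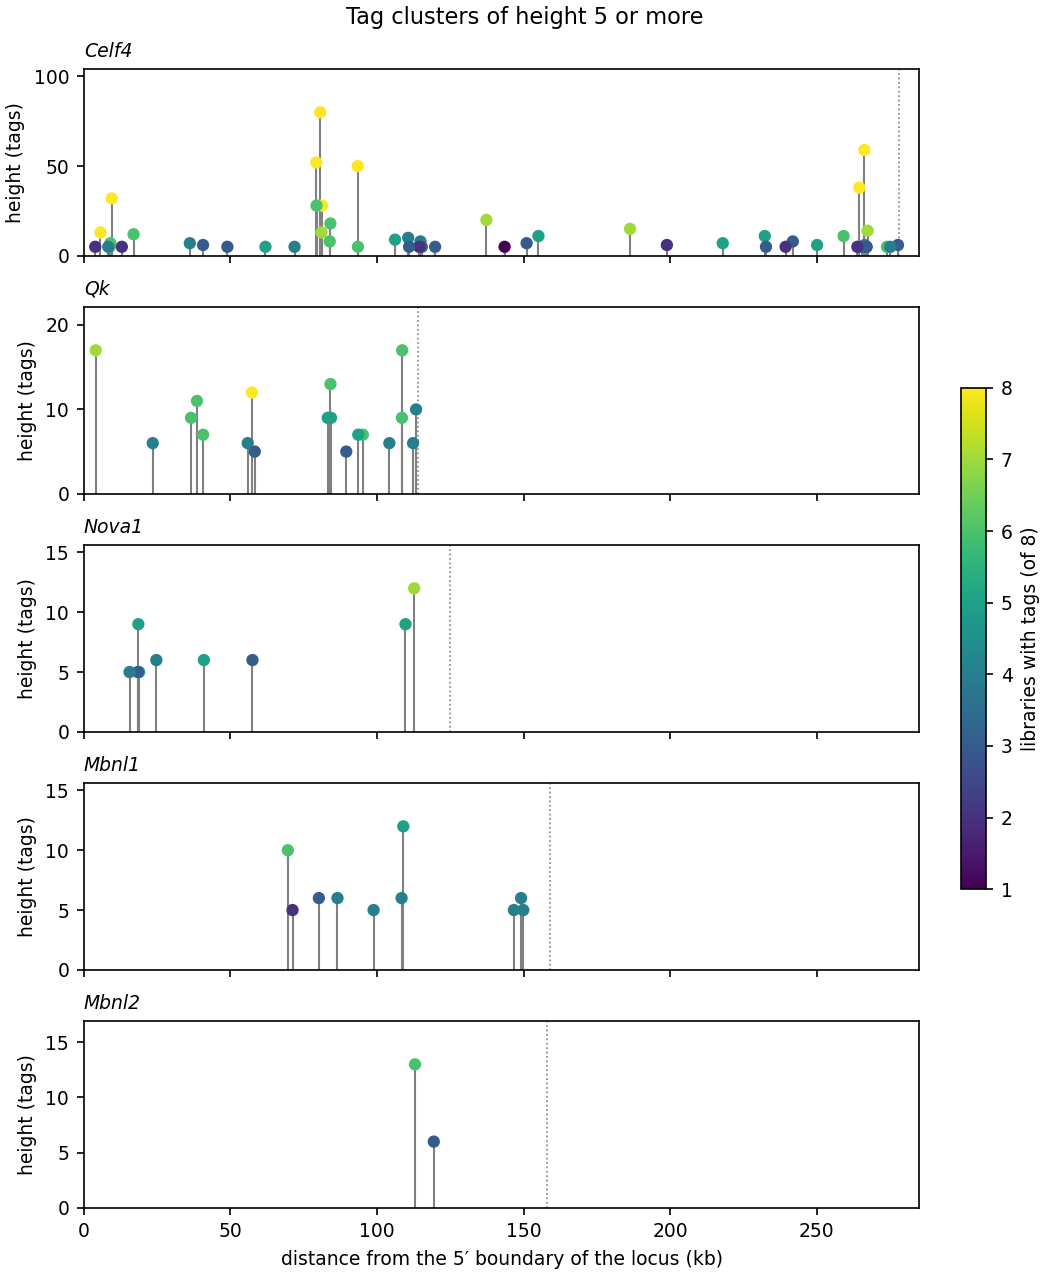
Height (tags over the fullest base, 8 libraries pooled) of each cluster of height 5 or more against its distance from the 5′ boundary of the locus, coloured by the number of libraries with tags. Celf4 reaches 80, Qk 17, Mbnl2 13 and both Nova1 and Mbnl1 12, and the vertical scales differ.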

How the data were processed

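Tags were counted from the deposited list, 1 row per mapped tag, in which the authors gave chromosome, start, end, strand, a tag name that opens with the library code of a title, and a score that is 0 in each row and was not used. Per the submitters' processing notes Bowtie was used, with builds mm8 and mm9. Tags on chromosome 1 reach position 197194446 and coordinates were taken as mm9, counted from 1. Removal of repeated reads and treatment of multiply mapping reads are not given in the sources used here. Whether tags at a repeated position are separate RNA molecules or copies was not tested. Tags were assigned by midpoint. Marker genes of the tissue were not checked.

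The brains were compared with limma 3.58.1 (voom, R 4.3.3) in 3 tables: the 5 loci with 100 kb strand-specific windows, 10 kb windows, and clusters of height 10 or more. Features needed the CPM of 10 tags at median depth (25.0) in 4 libraries. Scaling between libraries used trimmed mean log ratios, with p-values adjusted after Benjamini and Hochberg over each table. Only rows of the loci are printed. Shares of a locus were compared with two-sided exact permutation tests, 10 in all, whose p is unadjusted. Same-numbered libraries did not deviate together (correlations of -0.06 to 0.0016 over the 3 tables), and the main test did not pair them by number. Counting error in features of few tags lowers such correlations, so they cannot decide whether the numbers pair the libraries. In the table with the 5 loci, libraries of the same letter correlated at -0.060 to -0.022 across brains. Those of unlike letters correlated at 0.020 to 0.061. The signs were mixed in the other tables. In simulated tables of the loci and 100 kb windows, 32 of 50 features made 2-fold higher in brain 2 were called, and 50 of 50 at 4-fold. At 0.5-fold 10 of 50 were called, at 0.25-fold 28 of 50, and of those left alone 3 of 9771. A lower level in brain 2 was thus found less often, and features that fell under the count filter counted as not called. The simulated spread between libraries was set in advance and not estimated from these data. The changed features were drawn at random, so the rates do not give the sensitivity at the 5 loci. The clusters named are the tallest of each locus and those of height 20 or more; other clusters named were chosen after their values were seen. The members and lists were chosen with earlier results of these data known. In RefSeq, 5 of the 5 symbols matched a gene, and 4 matched a promoter.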

Additional observations from a re-analysis of the deposited data

Results flagged for a closer look

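In 30 sets of 4 libraries of a brain (the CPM of each locus, and the share of its tags in the tallest cluster and in the fullest 10 kb window), 2 had a library far from the other 3 by Dixon's criterion; about 1 set in 20 would be by chance. Library 3 of brain 1 had 4.18% of its Celf4 tags in the tallest Celf4 cluster, while the other 3 had 6.06 to 6.42%. Library 4 of brain 1 had 0 of its 20 Mbnl2 tags in the tallest Mbnl2 cluster, a share of 0% that allows up to 15.0%, while the other 3 had 12.5 to 13.8%.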

How the results depend on the processing

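No alternative brought a locus, a 10 kb window or a cluster of the 5 loci past the threshold between brains; over 13 alternatives the adjusted limma p was 0.287 to 0.747 for Qk, 0.423 to 0.943 for Mbnl1, and 0.554 or more for the other 3. Qk stayed lower in brain 2 (log2 difference -0.50 to -0.21) and Mbnl1 higher (0.12 to 0.47). The other loci, near 0 in log2 difference, changed sign. Nova1 was at -0.11 without the count filter and at -0.14 to 0.41 with a library left out (lowest without library 3 of brain 2). Mbnl2 was at 0.19 with the replicate number as a block, at 0.0038 with positions counted once per library, and at -0.57 to 0.21 with a library left out (above 0 without library 1 or 4 of brain 1 or library 1 of brain 2). Celf4 was at -0.056 with total tags, -0.18 without the filter, -0.10 with libraries of a letter summed, and -0.023 to 0.061 with a library left out (below 0 without library 4 of brain 2). The block changed no other direction and no call at the 5 loci. The tables without the filter tested more features (49253 in place of 9971), and the cause of these shifts was not tested. With total tags the median log2 difference moved from -0.0032 to -0.21 over 10 kb windows and from 0.02 to 0.16 over clusters. Calls over all features of the table with the 5 loci went from 63 to 30 without the filter and 0 with libraries of a letter summed (1689 with an unadjusted limma p under 0.05), those over windows from 45 to 8 with total tags or without the filter, 14 with positions counted once and 5 with letters summed, and those over clusters from 6 to 15 with total tags, 3 with positions counted once and 0 with letters summed (155 with an unadjusted limma p under 0.05). With a library left out they were 16 to 65 (16 and 27 without library 1 and 2 of brain 2, 32 without library 3, 22 and 29 without library 1 and 2 of brain 1), 17 to 44 over windows (17 without library 1 of brain 1) and 1 to 9 over clusters (1 and 3 without library 1 and 2 of brain 1). With the replicate number as a block, calls over all features were 62, with 40 over windows and 5 over clusters. With positions counted once no cluster of the loci had enough tags to be tested.

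Cluster counts followed the height asked for: at a height of 5 there were 9 in Nova1, 10 in Mbnl1, 2 in Mbnl2, 19 in Qk and 54 in Celf4, and at 20 there were 0, 0, 0, 0 and 9. With positions counted once per library, there were 0 in place of 1 in Nova1, 0 in place of 2 in Mbnl1 and 3 in place of 6 in Qk. Celf4 had 15 in place of 19, and its density went from 1.92 to 1.76. The share of Celf4 tags in its tallest cluster went from 5.85% to 4.75%, and that in its fullest 10 kb window from 16.2% to 14.2%. With a library left out Nova1 had 0 to 1 clusters (0 without library 1 of either brain), Mbnl1 0 to 2 (0 without library 2 of brain 2, and 1 without any other library except library 3 of brain 1), Mbnl2 0 to 1 (0 without library 1 of brain 1), Qk 4 to 6 and Celf4 16 to 19. In Qk windows of 5 kb held at most 11.3% of the tags in place of 15.9%. Depth limits Mbnl2 most, with 2 tags in library 1 of brain 2 and 4 in library 4.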

Other observations

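The opposite strand of the Mbnl2 interval held 40 tags, 31 from brain 1 and 9 from brain 2, and 13 of them lay in a single 10 kb window. The opposite strands of Qk, Nova1 and Mbnl1 held 8, 10 and 12. Opposite Celf4 there were 44 tags in a longer interval (0.158 per kb, against 0.253 opposite Mbnl2).

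Repeated positions were more frequent in Celf4. Of its tags, 18.7% fell on a position that another tag of the same library already held, against 14.2% in Mbnl1, 12.9% in Nova1, 12.0% in Qk, 10.8% in Mbnl2 and 11.5% over all tags. With each position counted once per library, Celf4 had 1.76 in place of 1.92 CPM per kb.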
